A study of Mus musculus with 6 samples.

Results

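Prostanoids and leukotrienes are made from arachidonic acid by a short series of enzymes, and the transcripts of 10 of these enzymes were examined in resident macrophages of the mouse peritoneal cavity with and without a conditional deletion of Gata6. The genes were Ptgis, Tbxas1, Ptgs1, Ptgs2, Ptges, Hpgds, Alox15, Alox5, Alox5ap and Ltc4s, chosen by name with earlier results of these data known. Every probe set that the array annotation pairs with 1 of these symbols alone was used, which gave 12 of the 45101 probe sets on the array and covered 9 of the 10 genes. The annotation used here pairs no probe set with Ptgs1, which encodes the constitutive cyclooxygenase, and it was not analysed here. The series compared 3 Gata6-KO pools, from mice carrying a floxed, conditionally deleted Gata6, with 3 Gata6-WT pools from wild type mice. All mice were 7 weeks old and each pool held peritoneal cells of 2 to 3 animals. The cells were sorted as CD11b-high and MHCII-low/negative, and each pool's total RNA went to its own array. Pools count as biological replicates in the labels, and the design states sex matching. Neither the Cre line, with the cells in which it acts, nor the deleted exons were named in the sources used here.

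Arachidonic acid is released from membrane phospholipids by phospholipases A2. The cyclooxygenases turn it into prostaglandin H2, from which terminal synthases make the single prostanoids: prostacyclin synthase (Ptgis), thromboxane synthase (Tbxas1), microsomal prostaglandin E synthase (Ptges) and the haematopoietic prostaglandin D synthase (Hpgds). In the lipoxygenase branch Alox5, helped by its activating protein Alox5ap, starts leukotriene synthesis, Ltc4s joins the product to glutathione to give leukotriene C4, and Alox15 inserts oxygen elsewhere on the chain. Resident peritoneal macrophages are a classical source of these lipids, and mouse resident peritoneal cells are known for prostacyclin and for high Alox15 activity.

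Because the deleted factor recognises sites built around the letters GATA, the bases just before the start of the called genes are shown where the RefSeq table (GRCm38.p6) holds them. It held 7 of the 10 genes; Ptgis, Alox15 and Alox5ap had no entry. Each run below is the 250 bases before the gene's start, 5′ to 3′ on the gene's strand, with GATA, or TATC for GATA on the other strand, in capitals.

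Tbxas1 (chr6:38918736-38918985, plus strand): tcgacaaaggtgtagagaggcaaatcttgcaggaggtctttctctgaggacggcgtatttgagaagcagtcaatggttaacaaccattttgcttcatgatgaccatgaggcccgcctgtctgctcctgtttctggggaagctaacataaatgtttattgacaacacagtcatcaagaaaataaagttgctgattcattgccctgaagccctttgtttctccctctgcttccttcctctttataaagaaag
Ltc4s (chr11:50238533-50238782, minus strand): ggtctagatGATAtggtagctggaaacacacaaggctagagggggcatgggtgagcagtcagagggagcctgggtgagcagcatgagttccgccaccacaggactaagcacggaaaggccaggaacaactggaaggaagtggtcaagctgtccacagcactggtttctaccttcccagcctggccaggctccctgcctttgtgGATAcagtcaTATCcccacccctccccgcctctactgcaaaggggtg
Ptges (chr2:30903298-30903547, minus strand): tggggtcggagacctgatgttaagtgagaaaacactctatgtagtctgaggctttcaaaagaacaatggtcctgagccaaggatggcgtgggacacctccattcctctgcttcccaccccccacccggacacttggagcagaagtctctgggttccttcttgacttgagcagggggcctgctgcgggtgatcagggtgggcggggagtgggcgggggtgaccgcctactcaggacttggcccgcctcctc

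The Ltc4s window held 3 matches, beginning 241, 47 and 37 bases before the start. The Tbxas1 and Ptges windows held 0 matches, which says nothing about sites outside them. Among the windows not shown, Alox5, which was not called, held 2 matches, Ptgs1 held 1, and Ptgs2 and Hpgds held 0. Of all 32851 windows of this length in the table, 53.6% held at least 1 match and 8.86% held 3 or more, so a match of these 4 letters is common.

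The values are linear probe set signals, converted to log2(signal + 16) for every difference given below. Testing covered probe sets whose mean over the 6 arrays exceeded the 40th percentile (a signal of 47.5), and one was called if its limma p-value, adjusted over all 27022 tested probe sets, was under 0.05. The error after a mean signal is the SD over 3 arrays, and after a log2 difference it is the SE of the fit. Median signals per array were 79.7 to 88.5. Gata6 itself, at 2 of its 3 probe sets, had lower signals in Gata6-KO (172.5 to 184 against 337 to 483, and 2998 to 4452 against 5405 to 7279), while at the third the groups overlapped (1363 to 2161 against 1436 to 2276). Xist, expressed from an inactive X chromosome, had signals of 102 and 113 in the replicates numbered 1 and 11158 to 13749 in the others at its highest-signal probe set. Eif2s3y, on the Y chromosome, read 3494 and 3674 in those same arrays against 1.22 to 15.3 in the remaining ones, so values are also given for replicates 2 and 3 (female-type, 2 arrays against 2) and for replicate 1 (male-type, 1 against 1, no test).

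In Gata6-KO the transcripts of prostacyclin synthase and Alox15 were lower, and those of thromboxane synthase and leukotriene C4 synthase were higher. Ptgis fell 19.7-fold and Alox15 2.33-fold, while Tbxas1 rose 3.03-fold and Ltc4s 1.48-fold; Ptges was called lower at 1 of its 2 tested probe sets. Of the 9 genes with a probe set, 8 had one above the filter. With each gene represented by its tested probe set of highest mean, 4 of these 8 were called, 2 higher and 2 lower, where 13.1% of the 12511 genes tested were called, 5.61% higher and 7.46% lower. By probe set 5 of 9 tested were called, 2 higher and 3 lower, against 10.8% of all, 5.12% higher and 5.67% lower. The groups did not overlap for 5 of the 8 genes, against 34.4% of all genes, and for 6 of the 9 probe sets, against 31.0% of all. Because the members were chosen with earlier results of these data known, these shares are a description and no test of the set. The filter left out both Ptgs2 probe sets and 1 of 3 for Ptges. In bulk RNA, fewer cells that express a gene and less RNA of it per cell cannot be told apart.

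**Figure D1:**
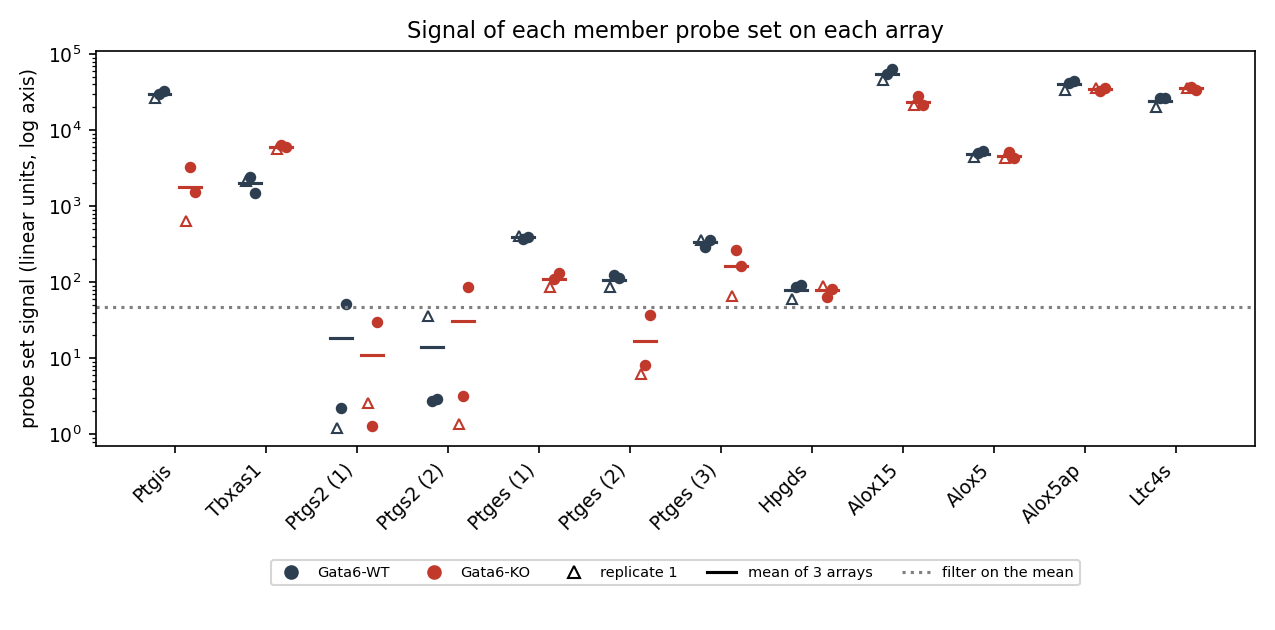
Signal of each of the 12 probe sets (x axis) on each array (y axis, linear signal units on a log axis), with Gata6-WT in dark blue and Gata6-KO in red, triangles for replicate 1, bars for the mean of 3 arrays and a dotted line at the filter signal of 47.5. Ptgis shows the widest gap, from 26392 or more in Gata6-WT to 3288 or less in Gata6-KO, and the Ptgs2 signals scatter around or below the filter.

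Upstream of the prostanoid synthases, Ptgs2, the inducible cyclooxygenase, gave signals near the bottom of the scale in both genotypes. Its first probe set had 2.56, 1.28 and 29.6 in Gata6-KO and 1.22, 2.19 and 51.9 in Gata6-WT. The second had 1.36, 3.17 and 87.7 against 36.2, 2.78 and 2.93. At each probe set 1 array of each genotype stood above the others, and the groups overlapped. With no filter on low signals neither was called (limma adjusted p = 0.92 and 0.89). The 95% intervals of the log2 differences, -1.49 to 1.13 and -1.28 to 1.87, leave more than a 2-fold change in either direction within reach.

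Ptgis, which turns prostaglandin H2 into prostacyclin, an inhibitor of platelet aggregation and a vasodilator, had signals of 26392, 29783 and 32411 in Gata6-WT. In Gata6-KO it had 642, 3288 and 1529. The highest Gata6-KO array thus lay far below the lowest Gata6-WT array. The mean fell from 29529 ± 3018 to 1819.7 ± 1347 (± SD over 3 arrays). The log2 difference of -4.30 (SE 0.45, limma adjusted p = 0.00036) was the 6th lowest among the 12511 genes. Gata6-KO replicates 1, 2 and 3 kept 2.18%, 11.1% and 5.18% of the wild type mean. The spread among the Gata6-KO pools, from 642 to 3288, was much wider relative to the mean than among the Gata6-WT pools. The log2 difference between the genotypes was -3.78 in the female-type arrays and -5.33 in the male-type arrays. The limma interaction of type and genotype was -1.54 (unadjusted p = 0.022, adjusted p = 1.00), with 1 male-type array per genotype.

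Tbxas1, which makes thromboxane A2, a platelet activator and vasoconstrictor, from the same prostaglandin H2, went the other way. It had 5657, 6307 and 6056 in Gata6-KO and 2137, 2409.5 and 1480.1 in Gata6-WT. All Gata6-KO arrays were above all Gata6-WT arrays, and the Gata6-KO arrays lay close together. The mean rose from 2009 ± 478 to 6007 ± 328 (log2 1.60 ± 0.17, limma adjusted p = 0.00037), with 1.70 in the female-type and 1.40 in the male-type arrays.

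Since both synthases draw on prostaglandin H2, their change was also taken within each array, as the log2 ratio of Tbxas1 to Ptgis minus its wild type mean. It was 7.00, 4.83 and 5.87 in Gata6-KO replicates 1, 2 and 3 and 0.27, 0.27 and -0.55 in Gata6-WT. For both genes the groups did not overlap, in opposite directions. The ratio was therefore bound to be higher in each Gata6-KO array than in every Gata6-WT array, and its permutation p-value adds nothing. The log2 difference was 5.90, a 59.6-fold shift of the transcript ratio, with SDs of 1.09 in Gata6-KO and 0.47 in Gata6-WT (n = 3; exact two-sided permutation p = 0.1, the smallest that 3 against 3 arrays can give). It was 5.48 in the female-type and 6.72 in the male-type arrays. This is a change in relative transcript signal; the level of one probe set against another and the amounts of the lipids were not measured.

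**Figure D2:**
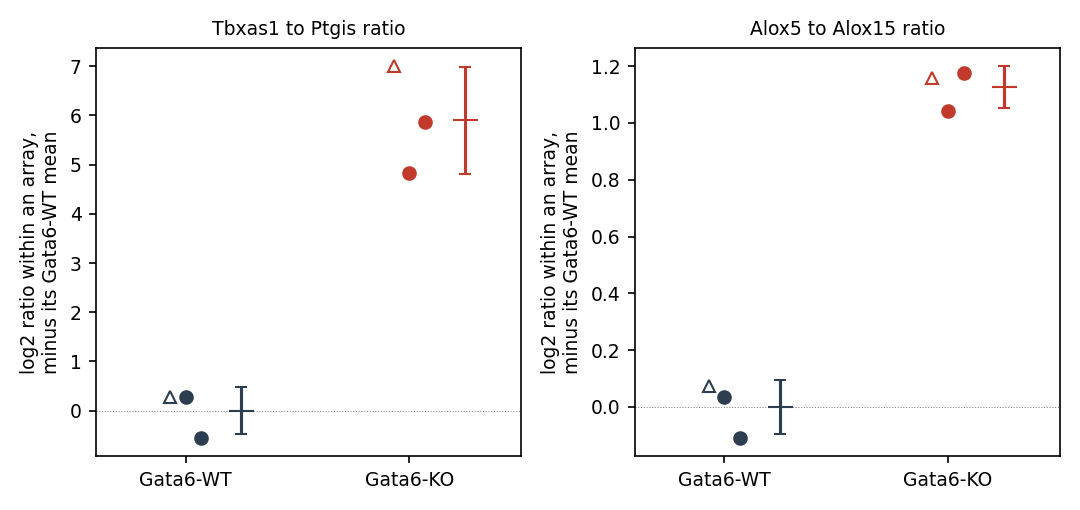
Log2 ratio within each array of Tbxas1 to Ptgis (left) and of Alox5 to Alox15 (right), each minus its Gata6-WT mean (y axis), for 3 Gata6-WT and 3 Gata6-KO arrays, with triangles for replicate 1 and the mean ± SD beside the points. The Tbxas1 to Ptgis ratio lies between 4.83 and 7.00 in Gata6-KO, and the Alox5 to Alox15 ratio between 1.04 and 1.18.

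Ptges, the inducible microsomal enzyme that makes prostaglandin E2, a mediator of fever, pain and macrophage regulation, had a lower mean signal at each of its 3 probe sets, with groups that did not overlap. The first had 86.0, 109.6 and 133 in Gata6-KO against 409, 367 and 395 in Gata6-WT. It fell 3.27-fold (log2 -1.71 ± 0.20, limma adjusted p = 0.00074; female-type -1.54, male-type -2.06). The second had 6.28, 8.23 and 36.9 against 86.4, 125 and 114. It lay below the filter; without the filter its log2 difference of -2.01 ± 0.45 had an adjusted p of 0.033.

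The third Ptges probe set, which has the highest mean and represents the gene in the counts, had 65.4, 269 and 163 in Gata6-KO against 365, 288 and 358 in Gata6-WT. Gata6-KO replicate 2, at 80.0% of the wild type mean, came close to the wild type arrays, and replicate 1 was at 19.4%. Its difference did not pass (log2 -1.13 ± 0.39, 95% interval -1.996 to -0.25, limma adjusted p = 0.10). It was -0.58 in the female-type and -2.22 in the male-type arrays (limma interaction -1.65, unadjusted p = 0.014, adjusted p = 1.00). Without Gata6-KO replicate 2 it was -1.54 with adjusted p = 0.029, and adjusted p lay between 0.029 and 0.31 across 18 variations, of which this 1 passed. With the mean of both tested probe sets in place of the highest, Ptges was called lower (log2 -1.42 ± 0.26, adjusted p = 0.0090). The call for Ptges therefore depends on which probe set stands for the gene.

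Hpgds, which makes prostaglandin D2 in mast cells and some macrophages, had 90.6, 64.6 and 80.4 in Gata6-KO and 60.5, 86.5 and 92.9 in Gata6-WT. The groups overlapped throughout. The log2 difference was -0.01 ± 0.29, with a 95% interval of -0.67 to 0.64 (limma adjusted p = 0.98). The interval covers changes in both directions, so none was detectable at these signals.

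In the lipoxygenase branch, Alox15, the enzyme known in mouse as 12/15-lipoxygenase, fell and Alox5 did not pass the test. Alox15 had 21270.3, 28385 and 21415 in Gata6-KO and 46435, 54921 and 64451 in Gata6-WT. The groups were well apart, and the signal in Gata6-KO remained high on the scale of the arrays. The mean fell from 55269 ± 9013 to 23690.2 ± 4067 (log2 -1.22 ± 0.15, limma adjusted p = 0.0011), with -1.27 in the female-type and -1.13 in the male-type arrays. Unlike Ptgis, the Gata6-KO arrays kept similar shares of the wild type mean, at 38.5%, 51.4% and 38.7%; whether the genes differ in this was not tested.

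Alox5, which performs the first steps of leukotriene synthesis, had 4265, 5250.0 and 4344 in Gata6-KO against 4384, 5049 and 5369.6 in Gata6-WT. The groups overlapped, with a log2 difference of -0.10 ± 0.12 (95% interval -0.38 to 0.18, limma adjusted p = 0.69). Alox5ap, the membrane protein that presents arachidonic acid to Alox5, had 36005, 33026 and 35674 against 34226, 41539.6 and 44755. Gata6-WT replicate 1 lay within the Gata6-KO range, and the difference of -0.19 ± 0.12 did not pass (95% interval -0.46 to 0.07, adjusted p = 0.36). For both genes the interval excludes a 2-fold change.

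The change of Alox5 relative to Alox15 within an array was narrow in spread. Minus its wild type mean, the log2 ratio was 1.16, 1.04 and 1.18 in Gata6-KO and 0.07, 0.03 and -0.11 in Gata6-WT. All Gata6-KO arrays lay above all Gata6-WT arrays. The log2 difference was 1.13, a 2.18-fold shift, with SDs of 0.07 and 0.10 (n = 3; exact two-sided permutation p = 0.1, the smallest possible). It was 1.15 in the female-type and 1.09 in the male-type arrays.

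Ltc4s, which commits the pathway to the cysteinyl leukotrienes, mediators of vascular leak and smooth muscle contraction, had 36286, 36662 and 34026 in Gata6-KO. In Gata6-WT it had 20008, 26378 and 26323. The groups did not overlap, with Gata6-WT replicate 1 the lowest array. The mean rose from 24236 ± 3662 to 35658 ± 1426 (log2 0.57 ± 0.13, limma adjusted p = 0.020). The log2 difference was 0.42 in the female-type arrays, where the call was lost (adjusted p = 0.061), and 0.86 in the male-type arrays. The call was also lost without Gata6-KO replicate 1 (0.067), replicate 2 (0.076) or replicate 3 (0.050), and adjusted p lay between 0.00057 and 0.099 across 18 variations, of which 12 kept it.

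**Figure D3:**
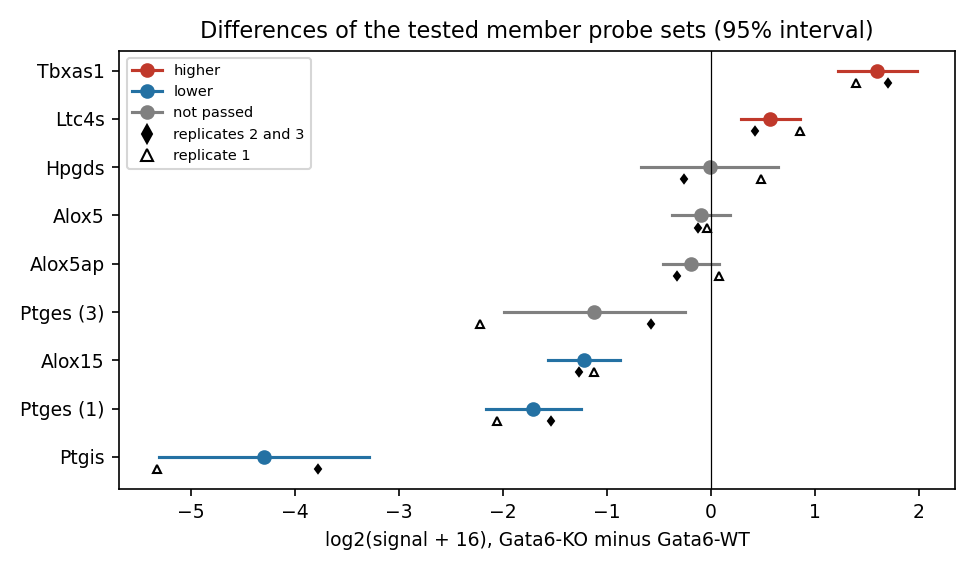
Difference of each of the 9 tested probe sets between Gata6-KO and Gata6-WT (x axis, log2 scale) with its 95% interval, coloured by the call, and below each the value in replicates 2 and 3 (diamond) and in replicate 1 (triangle). Ptgis lies at -4.30 and Tbxas1 at 1.60, and the intervals of Hpgds, Alox5 and Alox5ap cross 0.

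Genes of the pathway around these enzymes were taken from 4 further lists, also chosen with earlier results known, with 45 genes tested. Over all genes tested the median log2 difference was -0.04, and over the 8 tested synthesis genes it was -0.15. In the list for release and reuse of arachidonate, 4 of 19 genes fell, 0 rose and 15 did not pass, with a median of -0.20, where 7.46% of all genes tested were called lower and 5.61% higher. Pla2g7, a phospholipase that inactivates platelet-activating factor, fell from 27678 ± 2889 to 6700 ± 3470 (log2 -2.22 ± 0.38, limma adjusted p = 0.0055; Gata6-KO 2700, 8502 and 8898). Its difference was -1.69 in the female-type and -3.29 in the male-type arrays (limma interaction -1.60, unadjusted p = 0.00016, adjusted p = 0.47). Mboat7, which places arachidonate into phosphatidylinositol, fell by 1.07, the monoacylglycerol lipase gene Abhd6 by 1.48 and the calcium-independent phospholipase gene Pla2g6 by 1.01 on the log2 scale. The Pla2g6 call was lost without any 1 of Gata6-KO replicates 1, 2 and 3 or Gata6-WT replicates 2 and 3 (adjusted p 0.051 to 0.11), and the Abhd6 call without Gata6-WT replicate 1 (0.059). The cytosolic phospholipase Pla2g4a, the main source of free arachidonate, had 2132 to 2542 in Gata6-KO against 2397 to 2895 in Gata6-WT and did not pass (log2 -0.15, adjusted p = 0.50).

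Among other prostanoid synthases and isomerases 2 of 5 rose, 0 fell and 3 did not pass, with a median of 0.72, against 5.61% of all genes called higher. Prxl2b, a synthase of F-type prostanoids, had 4860.0, 5726 and 4742 in Gata6-KO against 1214, 1502 and 1399.5 in Gata6-WT (log2 1.89 ± 0.13, limma adjusted p = 3.1e-05). Akr1c18, an aldo-keto reductase that acts on steroids and prostaglandins, had 910.4, 636 and 711 against 23.4, 109.1 and 108.9. It rose by 3.16 on the log2 scale (adjusted p = 0.0012), with 2.46 in the female-type and 4.56 in the male-type arrays, where the wild type signal of 23.4 was below the filter level (limma interaction 2.10, unadjusted p = 0.00091, adjusted p = 1.00). Ptgds, the other prostaglandin D synthase, did not pass (log2 0.72, adjusted p = 0.30).

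Of 10 other lipoxygenase and leukotriene genes, 1 fell, 0 rose and 9 did not pass, with a median of -0.09; this share is near the 13.1% called among all genes. The gene that fell was Mgst1, a microsomal glutathione transferase of the same family as Ltc4s and Alox5ap, from 27541 ± 2564 to 20819 ± 1633 (log2 -0.40 ± 0.11, adjusted p = 0.049). The call was lost without any 1 of the Gata6-KO replicates or Gata6-WT replicates 2 and 3 (0.084 to 0.16), and 7 of 18 variations kept it. Lta4h, which makes leukotriene B4, had 2432 to 2724 in Gata6-KO against 1977 to 2091 in Gata6-WT, with log2 0.36 and adjusted p = 0.059.

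In breakdown and transport 3 of 11 rose, 1 fell and 7 did not pass, with a median of 0.12, against 5.61% and 7.46% of all genes. Abcc1, an exporter of leukotriene C4, had 3555, 4267 and 4786 in Gata6-KO against 1016, 1269 and 1015 in Gata6-WT (log2 1.92 ± 0.15, limma adjusted p = 6.1e-05). Ptgr1, which inactivates leukotriene B4 and reduces oxidised prostaglandins, rose by 1.44, and the epoxide hydrolase gene Ephx1 by 0.95. Slco2a1, the prostaglandin uptake carrier, fell from 179 ± 28.6 to 72.6 ± 30.3 (log2 -1.18, adjusted p = 0.033), a call lost without Gata6-KO replicate 1 or 2 or any Gata6-WT replicate (0.071 to 0.10) and kept in 9 of 17 variations. Hpgd, which starts prostaglandin inactivation, did not pass (log2 0.33, adjusted p = 0.45).

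**Figure D4:**
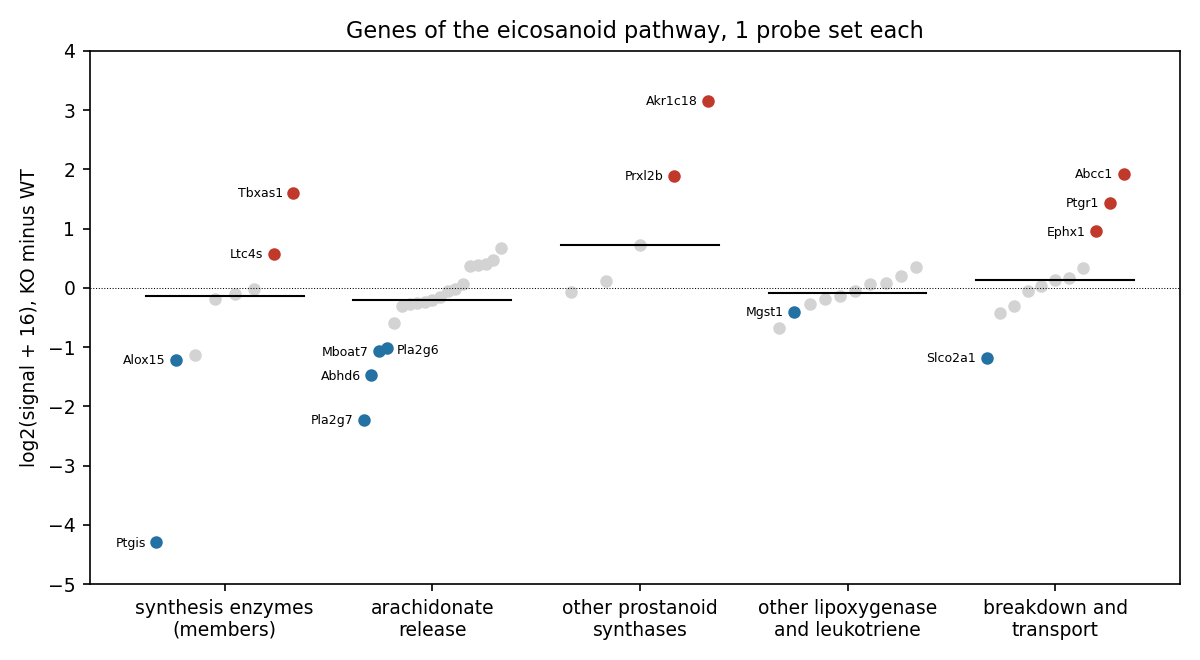
Log2 difference between Gata6-KO and Gata6-WT (y axis) of each tested gene of the eicosanoid pathway, 1 probe set per gene, by list (x axis), with called genes in red (higher) or blue (lower), others grey and a bar at the median of each list. Akr1c18, at 3.16, is the highest point and Ptgis, at -4.30, the lowest.

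Markers of other cells that make these enzymes were read on the same arrays. Mast cells make prostaglandin D2 and leukotriene C4: 4 of their 9 markers were above the filter, 0 were called, and their summed signal was 602 to 720.1 in Gata6-KO and 817 to 907 in Gata6-WT. Cpa3 had 125 to 206 against 250.3 to 305, Cma1 26.1 to 125 against 157 to 252, and the means of Kit, Fcer1a and Ms4a2 were under the filter. Tpsb2, under the filter, had means of 71.7 and 19.2, and Gata2 189.9 and 151 (log2 0.24, limma adjusted p = 0.63). Tpsab1, which was tested, had a lower mean in Gata6-KO, 75.8 against 95.5 (log2 -0.40, limma adjusted p = 0.63). The Fcer1a means were 6.23 and 14.8. Without Cpa3 and Cma1, left out after their values were seen, the sum of the other 7 markers was 427 to 460.1 in Gata6-KO and 349 to 409 in Gata6-WT. Of these 7, most of them under the filter, 4 had a higher mean in Gata6-KO. The part of mast cells in the Ltc4s result was not tested. None of the 5 eosinophil markers with a probe set reached the filter (sum 125 to 201 against 85.3 to 196).

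Of the 7 platelet markers with a probe set 5 were tested and 0 called, with a sum of 36761 to 46810.5 in Gata6-KO and 38504 to 51879 in Gata6-WT. Nearly all of it was Pf4, which macrophages also express; Itga2b had 247 to 377 against 315 to 385. Of 7 neutrophil markers 3 were tested, and S100a8 and Csf3r were called lower, where 7.46% of all genes tested were called lower. Csf3r went from 5368 to 2554 (log2 -1.06, limma adjusted p = 0.0074). The S100a8 call was kept in 13 of 18 variations. The sums were 2621 to 3667 in Gata6-KO and 5624 to 8451 in Gata6-WT, mostly from Csf3r and S100a8, which carried the fall. Elane, Mpo, Camp, Ltf and S100a9 had signals of 123 or less. Mpo, Camp, Ltf and S100a9 (means of 17.9 and 4.11), all under the filter, had higher means in Gata6-KO. Elane had a lower mean there (72.1 against 76.7) and did not pass. Signals under the filter are too low to show whether those markers fell. The part of neutrophils in the lipoxygenase results was not tested.

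Prostacyclin and prostaglandin E2 are also made by mesothelial cells, fibroblasts and endothelium. Of their 8, 6 and 6 markers, 2, 1 and 2 were tested and 0 were called. Their sums in Gata6-KO and Gata6-WT were 309 to 318 and 229.7 to 362 for mesothelial cells, 200.2 to 368 and 279 to 399 for fibroblasts, and 394 to 463 and 340.2 to 433 for endothelium. Msln, Upk3b and Wt1 were under the filter, as were Col1a1, Dcn, Cdh5 and Vwf. Sums were 282 to 441 and 348 to 620.5 for B cell markers, 127 to 169 and 103 to 218 for T and NK cell markers, with 0 called in either list. For dendritic cell markers they were 344 to 679 and 583 to 1290.4. Of the 3 tested, 1 was called lower, Cd209a (log2 -2.17), where 7.46% of all genes tested were called lower. Each of the other 5 dendritic cell markers had a higher mean in Gata6-KO and 0 of them were called. Without Cd209a, left out after its values were seen, their sum was 244 to 521 in Gata6-KO and 182 to 302 in Gata6-WT.

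Of 12 markers of the labelled cells all were tested. Csf1r, Lyz2, Cd14 and Itgam, which encodes CD11b, did not pass, with signals of 7567 or more on all arrays. Gata6, Timd4, Icam2, Selp, Cd93, Adgre1 and Cd68 were called lower and Mertk higher, where 13.1% of all genes tested were called. Their log2 differences were -3.37 for Selp, -2.46 for Cd93, -1.86 for Adgre1, -0.88 for Gata6, -0.70 for Timd4, -0.56 for Icam2, -0.41 for Cd68 and 0.43 for Mertk. Over 18 variations the call was kept in 10 for Icam2, 9 for Cd68 and 10 for Mertk. Of 5 MHC class II genes, on which the cells were gated low, all were tested. H2-Ab1 and Cd74 were called higher, where 5.61% of all genes tested were called higher. The H2-Ab1 call was kept in 13 of 18 variations. H2-Aa, H2-Eb1 and Ciita did not pass, with log2 differences of 0.74, 0.94 and -0.14. The summed signal was 2876 to 5345 in Gata6-KO and 1707 to 2798 in Gata6-WT. The part of such a shift in the cells collected in the results for the synthesis enzymes was not tested.

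Gene profiles most like those of the called enzymes were found by the Euclidean distance between log2 values over the 6 arrays, each centred on its wild type mean. Nearest to Ptgis were Ocln (distance 0.53), Tmem263 (0.75) and Ipcef1 (0.82), with log2 differences of -4.43, -4.29 and -3.92. Nearest to Tbxas1 were Bambi-ps1 (0.28), Lactb (0.31) and Mylip (0.39), and nearest to Alox15 were Pmel (0.24), Ccdc88b (0.25) and Serpinb7 (0.34). For Ltc4s they were 4930578G10Rik (0.17), Zim3 (0.17) and 1810013D15Rik (0.19), none of which was itself called (limma adjusted p = 0.25, 0.16 and 0.23). With 2 groups of 3 arrays these distances mostly rank genes by the size of the genotype difference.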

How the data were processed

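Peritoneal macrophage RNA of 3 Gata6-KO and 3 Gata6-WT pools was measured on 1 array each. The values deposited by the authors are linear probe set intensities; MAS5 and affy are named in the submitters' processing notes, without versions. Trimmed of 2% at each end, the array means were all 500.0, so the arrays share a scale. Detection calls were not used, and low MAS5 signals are noisy. The number of arrays limits the precision.

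Symbols came from the array annotation (34958 probe sets with 1 symbol, 932 with several, 9211 with none here). Log2(signal + 16) values of the 27022 probe sets above the 40th percentile, without 64 control probe sets, were fitted with limma 3.58.1 in R 4.3.3 (eBayes with trend, two-sided, Benjamini-Hochberg over all tested, threshold 0.05). Arrays were simulated as normal draws around the mean of each of these 27022 probe sets with its fitted variance, and 200 probe sets were changed. Of changes of log2 0.5, 1, 2 and 3, 5.8%, 47.2%, 85.6% and 95.6% were recovered, and 6.62% of calls were false. The data held 2916 calls, so these shares describe the simulated setting and not the recovery in the data. Members and lists were chosen with earlier results of these data known. Named are all members, Gata6, at most 4 called genes per pathway list with the largest change, the highest or called markers and the 3 nearest profiles per called member; Pla2g4a, Lta4h, Hpgd and Ptgds and markers under the filter were named for their roles after their values were seen. Variations covered pseudocount, filter, scaling, trend, array weights, replicate block, sex-linked term, omitted arrays, thresholds and probe set choice; median scaling over tested probe sets was chosen after seeing the data. Plots used Python 3.11.15 and matplotlib 3.10.9.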

Additional observations from a re-analysis of the deposited data

How the results depend on the processing

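Over the variations of the fit the count of synthesis genes called stayed between 3 and 5, against 4, of 8 tested (7 with the filter at the 60th percentile), and Ptgis, Tbxas1, Alox15 and the first Ptges probe set kept direction and call in each of 18 refits. Against 2916 called probe sets there were 1459 without the trend, 1654 in replicates 2 and 3, 1251 at an adjusted p under 0.01, 1256 with at least a 2-fold change, and 1856 to 2476 with 1 array left out. Of the Gata6 probe sets 1 rather than 2 was called without the trend, at an adjusted p under 0.01 and at 2-fold. Of the 45 other pathway genes 7 rather than 11 were called at an adjusted p under 0.01. Same-numbered replicates deviated together with r = 0.13, 0.07 and 0.07, under the limit of 0.1 for 2 of 3, so the arrays were not paired. With the replicate block 3076 probe sets, 4 synthesis genes and 10 other pathway genes were called, and no call among the synthesis genes changed. The Hpgds difference, -0.01, turned to 0.042 with median scaling over tested probe sets and ranged from -0.17 to 0.096 with 1 array left out, above 0 without Gata6-KO replicate 2 and Gata6-WT replicates 2 or 3. The Gata6 probe set that did not pass, at -0.01, turned to 0.045 with that scaling and 0.075 with array weights, and ranged from -0.17 to 0.18, above 0 without Gata6-KO replicate 2 or Gata6-WT replicate 3. The cause was not tested. Ltc4s was further lost with no filter (0.058) and without the trend (0.099). The Ptgs2 to Ptgs1 ratio was not run, since Ptgs1 was not analysed here. Signals near the filter, as for Ptgs2 and Hpgds, limit what can be resolved.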
